A study of Mus musculus with 53 samples.

Results

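SOX2 binding that persisted in cells co-expressing GATA6, at places where GATA6 itself was not called, was examined in CUT&RUN peak lists of SOX2-GFP/GATA6-mCherry (SGGC) mouse embryonic stem cells (ESCs). Peaks of the 10 SOX2 libraries were merged wherever they overlapped by at least 1 bp, which gave 39917 regions. A region was retained if it held peaks of all 7 libraries from pluripotent populations and of at least 2 of the 3 libraries from double-positive (DP) cells, and if no peak of the 3 DP GATA6 libraries overlapped it. These criteria left 1633 regions, or 4.09% of the merged regions, which are called kept sites here. Leaving out the DP SOX2 library of A1 or A and requiring both others left 735 or 761. Of the 4904 regions with peaks of all 7 pluripotent libraries, 2243 had peaks of at least 2 DP libraries, and the kept sites are 72.8% of these. The other 610, at which a DP GATA6 peak overlapped the same kind of SOX2 region, are called co-bound sites. Of these, 587 had a GATA6 peak of experiment A, whose label carries a tag (sub02) of unstated meaning, and without that library there were 345 co-bound and 1898 kept sites. The 1789 regions with peaks of all 7 pluripotent libraries and of no DP library are called DP-absent sites. The members of each class were thus chosen by their measured SOX2 and DP GATA6 peaks, which are described below without a test.

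All libraries came from SGGC clones of E14JU ESCs, in which endogenous SOX2 is fused to GFP and endogenous GATA6 to mCherry and the selection cassettes were left in place. In 2iLIF (MEK inhibitor, GSK3 inhibitor and LIF) and in NACL (Activin A, GSK3 inhibitor and LIF), SOX2, H3K27ac and H3K4me1 were each profiled in clones B9 and B12. Cells of KOSR (KnockOut Serum Replacement) culture, all of clone B12, were sorted into SOX2+ cells, with SOX2 libraries of experiments A, A1 and B and libraries of each histone mark from A and B, and DP cells, with SOX2 and GATA6 libraries of A, A1 and B and a library of each mark from A only. Naive extra-embryonic endoderm cells (nEnd) were profiled for GATA6 and H3K27ac in B9 and B12 and for H3K4me1 in 2 samples of B9. The medium of the NACL SOX2 library of B12 rests on its title, since its source name gives IgG and no medium, and without it the number of kept sites was 1649.

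SOX2 is a high-mobility-group transcription factor that holds ESCs in the pluripotent state, in large part together with OCT4 (Pou5f1) on composite DNA elements in distal enhancers. GATA6 is a zinc-finger factor that specifies primitive endoderm (PrE), the extra-embryonic sister lineage of the epiblast, and the nEnd cells are a cultured form of it. H3K4me1 marks enhancers whether or not they are active, while H3K27ac marks active enhancers and promoters.

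The SOX2 lists held 8203 to 29623 peaks in the pluripotent libraries and 1378 to 5320 in DP cells, and the DP GATA6 lists 1391 to 8316, so a missing DP peak may lie below what a short list can show. In a peak list of a bulk population, binding in fewer cells cannot be told apart from weaker binding in each cell. H3K27ac lists were very unequal, with 210904 to 401853 peaks in 2iLIF and NACL, 13514 to 76260 in the assigned KOSR libraries and 20072 and 21394 in nEnd. H3K27ac lay within 1 kb of the start sites of 12 to 14 of 14 pluripotency markers in 2iLIF and NACL, of 10 and 12 in SOX2+ cells, of 13 in DP cells and of 6 and 8 in nEnd, where Sox2 and Nanog lacked it in both libraries. Of 16 PrE markers, 15 and 16 carried it in nEnd, 6 and 7 in 2iLIF, 2 and 3 in SOX2+ cells and 6 in DP cells, but also 13 and 15 in NACL, where all 5 trophoblast markers carried it too.

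Short stretches of reference sequence (GRCm38, plus strand) show what these sites contain. The SOX-OCT composite searched here is CATTGT, 1 free base and ATGCAAAT, on either strand with up to 2 mismatches over its 14 fixed letters. The first 4 lines are the kept sites named below that hold it within 250 bp of the SOX2 maximum, with the composite in capitals. The last 3 are the named kept sites with nEnd GATA6 peaks in both libraries and the GATA string AGATAA, which is in capitals there.
Sox2 kept site, chr3:34654006-34654105: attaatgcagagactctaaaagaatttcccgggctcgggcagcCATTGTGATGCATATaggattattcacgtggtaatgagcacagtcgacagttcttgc
Nr5a2 kept site, chr1:137378699-137378798: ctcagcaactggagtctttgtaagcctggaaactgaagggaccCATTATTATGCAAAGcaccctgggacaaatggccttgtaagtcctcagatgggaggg
Tcf7l2 kept site, chr19:55543445-55543544: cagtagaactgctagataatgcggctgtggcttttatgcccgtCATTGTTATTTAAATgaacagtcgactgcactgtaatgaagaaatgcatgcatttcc
Suz12 kept site, chr11:79980752-79980851: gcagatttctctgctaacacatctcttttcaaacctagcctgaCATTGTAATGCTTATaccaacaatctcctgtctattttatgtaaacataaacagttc
Lama1 kept site, chr17:67694137-67694236: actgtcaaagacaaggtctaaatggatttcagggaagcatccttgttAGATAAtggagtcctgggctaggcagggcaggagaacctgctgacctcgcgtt
Il6st kept site, chr13:112416464-112416563: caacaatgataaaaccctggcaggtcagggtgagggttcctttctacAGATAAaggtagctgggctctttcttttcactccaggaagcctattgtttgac
Mybph kept site, chr1:134210478-134210577: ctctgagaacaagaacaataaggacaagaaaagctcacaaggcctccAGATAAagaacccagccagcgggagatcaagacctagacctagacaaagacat

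Those near Nr5a2, Suz12 and Lama1 lie between genes, those near Tcf7l2 and Mybph in introns, and those near Sox2 and Il6st within 1 kb of the start of some annotated transcript, though farther from the coding gene. The Sox2 stretch lies in the region of the SRR2 enhancer, a well-known target of SOX2 and OCT4, and its composite departs from the consensus at 1 letter. The composites near Nr5a2, Tcf7l2 and Suz12 depart at 2 letters each. As described below, the composite was found in 8.08% of kept sites, so most of them carry SOX2 without this string.

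Within each library, peaks were ranked by their highest signal, and a rank is given as a percentile of that library's peaks (ties share a rank). Kept sites were among the strong SOX2 peaks of pluripotent cells. Their median percentile was 85.5 and 80.0 in 2iLIF B9 and B12, 94.0 and 91.1 in NACL B9 and B12, and 92.1, 93.3 and 87.6 in SOX2+ cells of experiments A, A1 and B. In DP cells it was 60.4 in A, 65.4 in A1 and 53.2 in B, lower than in every pluripotent library. Co-bound sites showed the opposite order, ranking below kept sites in each pluripotent library (medians from 76.1 to 92.0) and above them in each DP library (83.4, 85.7 and 60.7). DP-absent sites ranked below both in every pluripotent library, from 49.1 to 87.2. In experiment A, 95.4% of the 1593 kept sites with a DP peak had a lower percentile in DP cells than in SOX2+ cells, and this share was 95.6% of 1619 in A1 and 99.1% of 775 in B. DP lists are shorter, so the same site can take a lower percentile there with no change in binding, and these ranks give no measure of a change in binding.

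**Figure D1:**
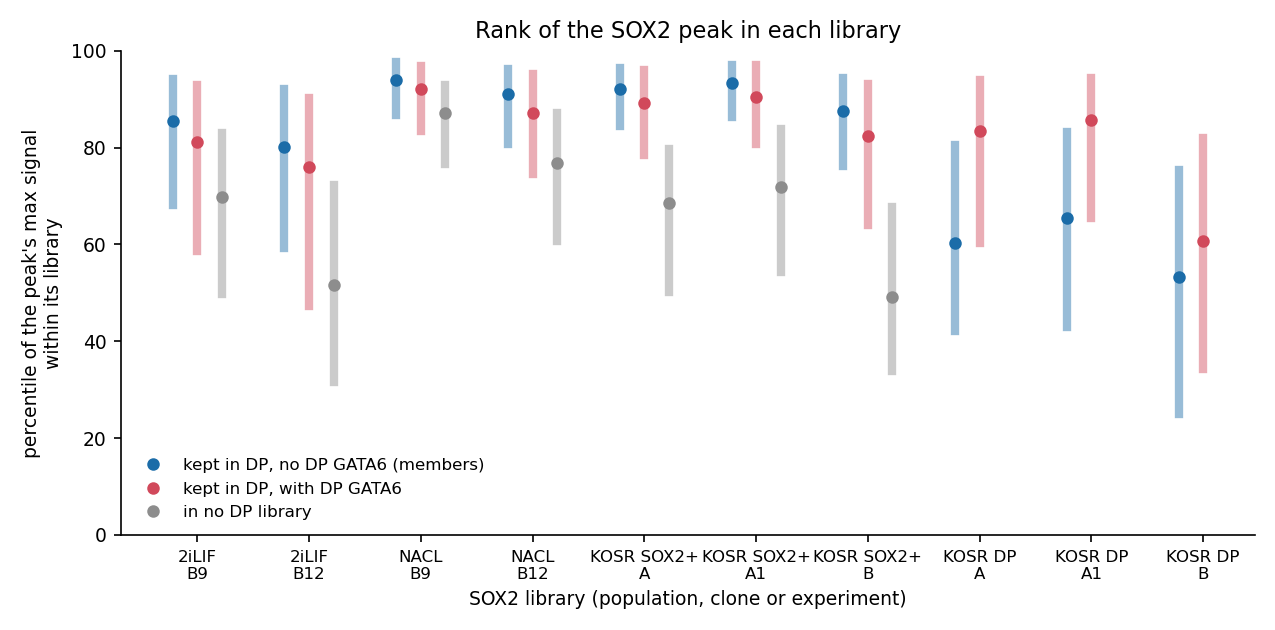
Percentile of the SOX2 peak's highest signal within its library (vertical axis, 0 to 100) in the 10 SOX2 libraries, for kept sites, co-bound sites and DP-absent sites, with points at medians and bars from the 25th to the 75th percentile of sites. Kept sites have the highest median of the 3 classes in the 7 pluripotent libraries and lie below co-bound sites in the 3 DP libraries.

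Of the kept sites, 721 had SOX2 peaks of all 3 DP libraries and 912 of exactly 2. Most of the latter, 858, lacked the peak of experiment B, whose DP list is the shortest with 1378 peaks. Just outside the criteria were 808 GATA6-free regions with a single DP library. The median percentile over pluripotent libraries was 66.0 in GATA6-free regions with no DP library, 74.1 with 1, 81.5 with 2 and 93.6 with 3. A DP GATA6 peak overlapped 1.12% of the regions with peaks of all 7 pluripotent libraries and no DP library, 7.34% of those with 1, 20.2% of those with 2 and 34.5% of those with 3. The distance from a kept site to the closest DP GATA6 peak had a median of 67966 bp. It was at most 1 kb for 53 kept sites (3.25%), and the nearest lay 32 bp away.

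H3K27ac covered nearly all kept sites in the defined media and fewer in KOSR culture and nEnd. The share of kept sites with an H3K27ac peak was 94.1% in 2iLIF B9, 93.9% in 2iLIF B12, 93.3% in NACL B9 and 94.5% in NACL B12. It was 44.8% in SOX2+ cells of experiment A, 50.8% in those of B and 69.4% in DP cells of A. In nEnd it was 27.6% for B9 and 33.9% for B12. All 6 libraries of SOX2-expressing cells other than DP lay above both nEnd libraries, by 10.9 to 66.9 percentage points. Their mean exceeded that of nEnd by 47.8 points (exact permutation test over 6 against 2 libraries, two-sided p = 0.0714, adjusted p = 0.143), and 0.0714 is the smallest p this design allows. The sites were selected for SOX2 peaks in these populations, and all merged SOX2 regions showed an excess of 30.9 points (54.6% against 23.7%). With every library held to its 13514 strongest peaks the difference for kept sites was 30.3 points. At that number all merged SOX2 regions were marked at 26.7% to 28.9% in 2iLIF and NACL. They were marked at 16.9% in both SOX2+ libraries and at 17.4% and 21.9% in nEnd. With clone as a replicate block it was 51.6 points (exact permutation p = 0.133, the smallest of 15 arrangements).

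Peaks of both libraries of a population lay at 1494 kept sites (91.5%) in 2iLIF and 1486 (91.0%) in NACL, where 63.5% and 65% of all merged SOX2 regions were called so. In SOX2+ cells they lay at 648 (39.7%, background 12.8%). The 1 DP library marked 1134 (69.4%, background 33.8%). In nEnd both libraries marked 404 (24.7%), against 19.4% of all merged regions. In 2iLIF and NACL the broad lists marked most SOX2 regions of any kind. With 13514 peaks per library the share of kept sites was 58.5% and 56.2% in 2iLIF and 60.4% and 65.3% in NACL. It was 44.8% and 50.2% in SOX2+ cells and 21.5% and 29.8% in nEnd. The shares of all merged regions at that number were 28.2% and 26.7% in 2iLIF and 28.7% and 28.9% in NACL. They were 16.9% in both SOX2+ libraries and 17.4% and 21.9% in nEnd.

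Kept sites held a place between co-bound and DP-absent sites. Their H3K27ac share was lower than that of co-bound sites in all 6 SOX2-expressing libraries, with differences of −2.34 to −1.80 points in 2iLIF and NACL and of −12.6 and −7.53 points in SOX2+ cells of A and B. The mean difference was −4.74 points ± 4.44 (SD, n = 6; exact sign-flip permutation test, two-sided p = 0.03125, adjusted p = 0.0417). Relative to DP-absent sites it was higher in all 6, by 4.73 to 6.57 points in 2iLIF and NACL and by 25.4 and 31.0 points in SOX2+ cells. That mean difference was 13.4 points ± 11.6 (SD, n = 6; exact sign-flip permutation test, p = 0.03125, adjusted p = 0.0417). At 13514 peaks per library the differences were −10.4 and 23.9 points. The libraries measured the same regions, so these p-values cover the spread between libraries and not between regions. In the DP library, 69.4% of kept sites were marked, 91.5% of co-bound sites and 33.3% of DP-absent sites, values without a replicate.

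Experiment A holds H3K27ac of both sorted populations. Of the 731 kept sites marked in SOX2+ cells, 92.3% were marked in DP cells as well, and 56 were not. A further 459 (28.1% of all kept sites) were marked in DP cells only, and 443 in neither. Over all merged regions, 87.5% of those marked in SOX2+ cells were marked in DP cells and 19% were marked in DP cells only. The DP list holds 76260 peaks against 13514 in SOX2+ cells, and the part of this inequality in the DP-only count was not tested.

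**Figure D2:**
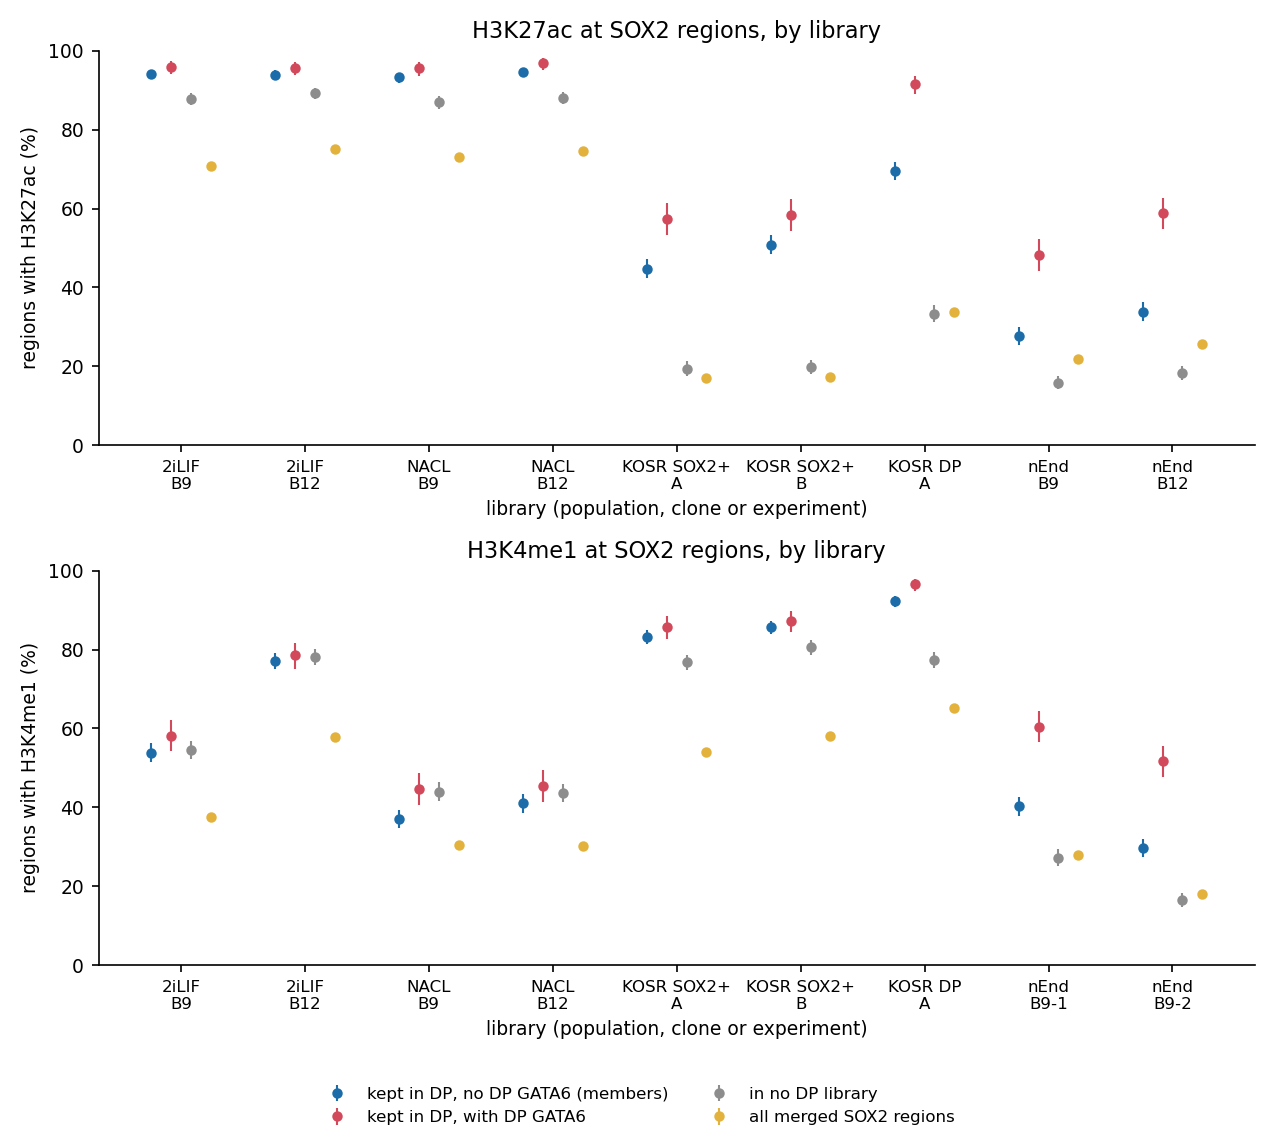
Share of SOX2 regions with a peak of H3K27ac (upper panel) or H3K4me1 (lower panel), in percent, in each library, for kept sites, co-bound sites, DP-absent sites and all merged SOX2 regions; bars are 95% Clopper-Pearson intervals. For H3K27ac, kept sites lie between co-bound and DP-absent sites in all 9 libraries, and for H3K4me1 they lie below co-bound sites in all 9.

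H3K4me1 followed another order, with the highest shares in KOSR culture and lower ones in NACL and nEnd. It lay at 53.9% and 77.2% of kept sites in 2iLIF B9 and B12, and at 37.0% and 41.0% in NACL B9 and B12. In SOX2+ cells of A and B it lay at 83.2% and 85.7%, and in DP cells of A at 92.2%. The nEnd samples of B9 gave 40.3% and 29.6%. Of the 6 SOX2-expressing libraries, 5 were above both nEnd libraries, NACL B9 being the exception. The mean was 28.1 points above nEnd (exact permutation test, p = 0.143, adjusted p = 0.143). Both nEnd samples are clone B9 while 4 of the 6 other libraries are B12, and within B9 alone the excess was 10.5 points (45.5% against 34.9%, exact permutation p = 0.667 with a smallest possible p of 0.333). With every library held to its 18627 strongest peaks the excess of the 6 libraries over nEnd was 19.1 points. At that number all merged SOX2 regions were marked at 23.2% to 36.4% in the 6 libraries and at 18.6% and 17.9% in nEnd. With all peaks, all merged SOX2 regions showed an excess of 21.8 points (44.7% against 22.9%). Peaks of both libraries covered 53.3% of kept sites in 2iLIF (background over all merged regions 36.4%), 29.3% in NACL (22.7%), 80.3% in SOX2+ cells (49.8%) and 26.9% in nEnd (16.3%). The DP library covered 92.2%, against 65.3% of all merged regions.

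Kept sites carried H3K4me1 less often than co-bound sites in all 6 SOX2-expressing libraries, with differences of −7.54 to −1.30 points. The mean difference was −3.63 points ± 2.31 (SD, n = 6; exact sign-flip permutation test, p = 0.03125, adjusted p = 0.0417). It was −6.12 points with the stronger 50% of SOX2 and DP GATA6 peaks, −5.73 for regions over 1 kb from a start site and −5.74 with equal peak numbers, and −2.23 and −2.29 without the DP SOX2 library of A or A1. Relative to DP-absent sites the mean difference was 0.035 points ± 4.96 (SD, n = 6; exact sign-flip permutation test, p = 1, adjusted p = 1), and 3.98 points with equal peak numbers. Here the populations split, the difference being −0.61 and −0.98 points in 2iLIF, −6.94 and −2.68 points in NACL, and 6.42 and 5.01 points in SOX2+ cells. With equal peak numbers the 2iLIF differences turned to 0.84 and 5.02 points, and those in NACL stayed negative. In nEnd they were 13.1 points above DP-absent sites in both samples, and the difference from co-bound sites was −20.2 and −22.1 points.

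A minority of kept sites was bound by GATA6 in nEnd, a readout the selection did not use. GATA6 peaks lay at 244 kept sites in nEnd B9 (14.9%, 95% Clopper-Pearson interval 13.2 to 16.8) and at 392 in B12 (24%, 22 to 26.2). For co-bound sites the shares were 51.8% and 66.6%, for DP-absent sites 4.47% and 7.32%, and for all merged regions 10.3% and 14.7%. Kept sites therefore lay above DP-absent sites and below co-bound sites in each library. The mean differences were 13.6 points ± 4.39 and −39.7 points ± 4.02 (SD, n = 2). An exact sign-flip permutation test gave p = 0.5 for each, the smallest that 2 libraries allow, so it can decide neither. Co-bound sites had been chosen for GATA6 peaks in DP cells. Both nEnd libraries called 227 kept sites (13.9%), against a background of 9.48%. Neither library had a peak at 1224 kept sites (75%), compared with 84.4% of all merged regions, 32.8% of co-bound and 91.9% of DP-absent sites. Where the nEnd GATA6 peak was present, its maximum lay a median of 54.5 bp from the SOX2 maximum in B9 and 55.5 bp in B12. These GATA6 peaks were of middle rank, with median percentiles of 36.3 and 42.8, and 3.69% and 3.06% of them were in the top 10% of their library.

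nEnd histone marks went with nEnd GATA6. H3K27ac was called in both nEnd libraries at 174 of the 227 kept sites with GATA6 in both (76.7%, interval 70.6 to 82.0) and at 154 of the 1224 without GATA6 (12.6%, interval 10.8 to 14.6). For H3K4me1 the shares were 59.0% and 17.2%. The same split was seen at co-bound sites (75.3% and 9.00% for H3K27ac) and at DP-absent sites (75.8% and 9.18%).

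**Figure D3:**
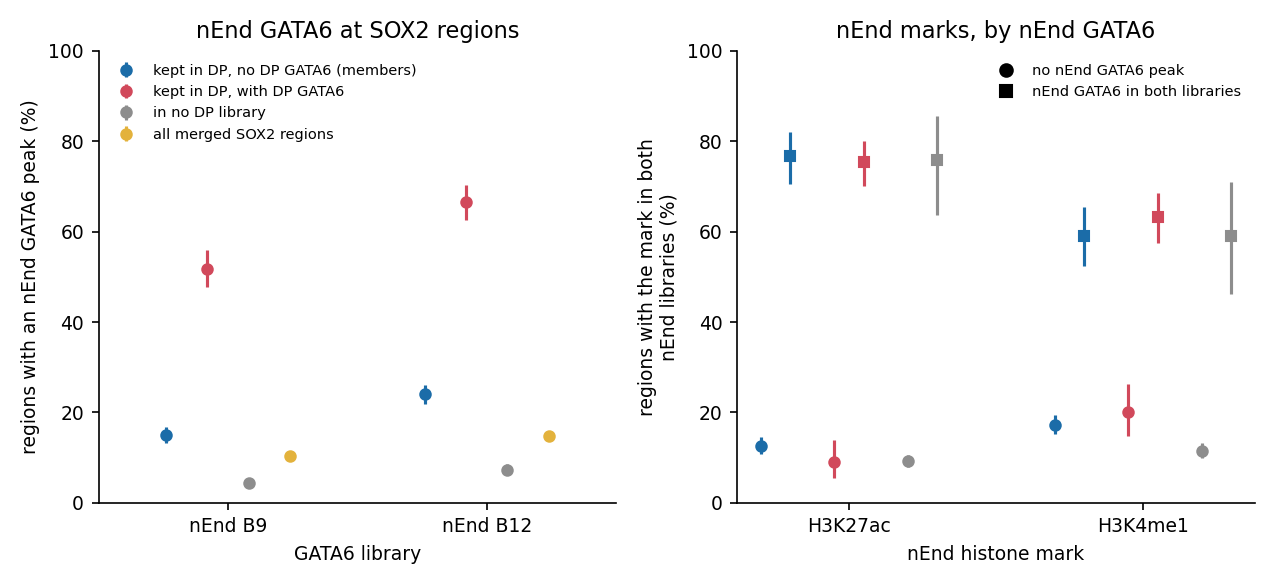
Left, share of SOX2 regions with a GATA6 peak in nEnd B9 and B12, in percent; right, share of kept, co-bound and DP-absent sites with H3K27ac or H3K4me1 in both nEnd libraries, for sites without an nEnd GATA6 peak (circles) and with one in both libraries (squares). Bars are 95% Clopper-Pearson intervals. GATA6 was at 14.9% and 24% of kept sites, and H3K27ac at 76.7% of those with GATA6 in both libraries and 12.6% of those with none.

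The 227 kept sites with nEnd GATA6 in both libraries had a larger share near start sites, given here without a test. Of these, 28.6% lay within 1 kb of an annotated start site, compared with 10.7% of the 1224 without nEnd GATA6. They carried H3K4me1 in both SOX2+ libraries at 66.5%, compared with 83.3% for those without. H3K27ac in both SOX2+ libraries was at 38.8% and 40.1%, and in the DP library at 77.5% and 67.2%. The share with H3K27ac in SOX2+ cells, DP cells and nEnd alike was 12.7% of all kept sites (207), while 24.9% (406) had it in SOX2+ and DP cells but not in both nEnd libraries, and 24.7% (404) had it neither in DP cells nor in both libraries of SOX2+ cells or of nEnd. At co-bound sites these shares, in the same order, were 26.7%, 23.9% and 6.07%, and at DP-absent sites 3.75%, 8.44% and 58.9%. Among the 406 kept sites, nEnd GATA6 was in both libraries at 9, and among the 207 at 78.

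Kept sites, like SOX2 regions in general, were mostly distal. The median distance of the region to the nearest start site of any GENCODE transcript was 10739 bp (10052 bp over all merged regions), and that of the SOX2 maximum to the nearest protein-coding start site 31603 bp (29435 bp). Within 1 kb of a start site lay 221 kept sites (13.5%, interval 11.9 to 15.3), against a background of 13.6%. Of the others, 842 (51.6%) had their SOX2 maximum between genes, 532 (32.6%) in an intron and 38 (2.33%) in an exon, compared with 45.02%, 38.8% and 2.60% of all merged regions. The share within 1 kb was 18.2% for co-bound sites (interval 15.2 to 21.5) and 8.72% for DP-absent sites (7.45 to 10.1). Kept sites near start sites had H3K27ac in both nEnd libraries at 48.4%, compared with 21% of the 1412 farther away, and nEnd GATA6 in both at 29.4% and 11.5%. The width of all kept sites had a median of 713 bp, compared with 746.5 bp for co-bound and 585 bp for DP-absent sites.

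**Figure D4:**
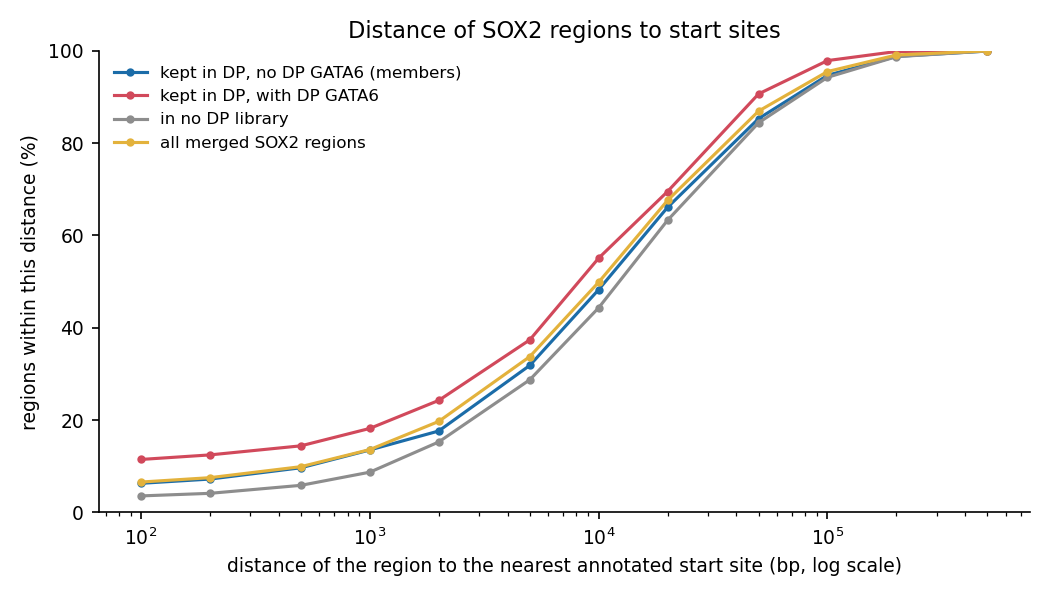
Cumulative share of SOX2 regions (vertical axis, percent) within a given distance of the nearest annotated start site (horizontal axis, bp, log scale), for kept, co-bound and DP-absent sites and all merged SOX2 regions. At 1 kb the curves stand at 13.5%, 18.2%, 8.72% and 13.6%.

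Motif strings were searched on both strands of the 500 bp centred on the median SOX2 maximum, and each is given as the share of windows that hold it, without a test. The SOX string CATTGT was in 51.5% of kept sites (interval 49.0 to 54.0), 48.5% of co-bound, 49.2% of DP-absent and 42.6% of all merged regions. The composite was in 8.08% (6.81 to 9.51), 8.20%, 7.04% and 3.85%, respectively. The OCT string ATGCAAAT, the second part of the composite, was in 8.14% of kept sites and 7.54% of all merged regions. The GATA string AGATAA was in 24.6% of kept (22.5 to 26.8) and 53.9% of co-bound sites (49.9 to 57.9). The selection itself split these classes by DP GATA6 peaks. DP-absent sites gave 21.4% and all merged regions 27.8%, so it was the co-bound sites that stood apart. The string TCAAGGTCA, recognised by the nuclear receptor ESRRB, was in 6.86% of kept sites (5.68 to 8.19), 4.92% of co-bound, 3.07% of DP-absent (2.32 to 3.98) and 3.89% of all merged regions. CCACACCC, a Krüppel-like factor (KLF) string, was in 6.06% and GCCATTA, a NANOG string, in 4.65% of kept sites, beside 6.53% and 5.10% of all merged regions. Kept sites with GATA6 in both nEnd libraries held AGATAA in 29.1% of windows (23.3 to 35.4) and those without in 23.2% (20.9 to 25.7), and in the central 200 bp in 17.6% and 6.45%. For the composite these shares were 3.96% and 9.40% of 500 bp windows.

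**Figure D5:**
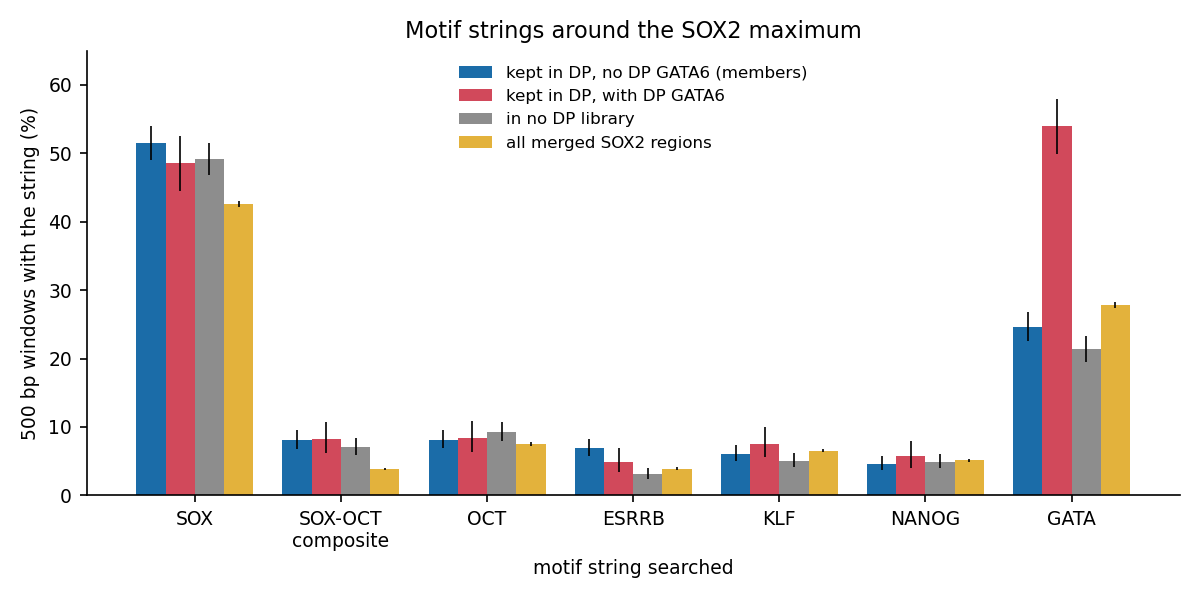
Share of 500 bp windows around the SOX2 maximum (vertical axis, percent) that hold each motif string (horizontal axis), for kept, co-bound and DP-absent sites and all merged SOX2 regions; bars start at 0 and lines are 95% Clopper-Pearson intervals. The GATA string stands at 24.6% for kept and 53.9% for co-bound sites.

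Kept sites were assigned to the nearest protein-coding start site, which names a gene without showing that it is regulated. They fell to 1366 genes, of which 1163 had 1 kept site, 161 had 2 and 42 had 3 or more, with at most 6 at Cntnap5b and Tex14. Of 25 genes of core and naive pluripotency, 13 were the nearest gene of 22 kept sites (1.35% of kept sites, beside 0.769% of all merged regions). These were Sox2 and Jarid2 with 3 each, Sall4, Nanog, Nr5a2, Pou5f1 and Klf2 with 2 each, and Klf4, Tfcp2l1, Esrrb, Tbx3, Dppa2 and Fbxo15. H3K27ac was present in all 4 2iLIF and NACL libraries at 21 of the 22, in both SOX2+ libraries at 17, in the DP library at 20 and in both nEnd libraries at 8. Among all kept sites the corresponding shares were 87.4%, 39.7%, 69.4% and 24.7%. nEnd GATA6 was in both libraries at 3 of the 22. The same gene list was nearest to 1.97% of co-bound sites, a higher share, and to 1.01% of DP-absent sites. Sox2, Sall4, Klf4, Jarid2, Tbx3 and Fbxo15 were nearest genes of co-bound sites too.

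At Sox2 itself, the kept site holding the composite printed above (chr3:34653703-34654335) lay 3.65 kb downstream of the start site. Its SOX2 percentile was 83.7 to 97.8 over the 7 pluripotent libraries, with a median of 93.1, and 72.5 and 49.5 in DP cells of A and A1. The other Sox2 kept sites, chr3:34757542-34758341 and chr3:34760859-34761707, lay 108 and 111 kb downstream, in the stretch of the distal Sox2 control region, on which Sox2 transcription in mouse ESCs depends. The former ranked at 85.3 to 95.4 in pluripotent cells and at 52.2, 79.9 and 44.1 in DP cells of A, A1 and B. The latter ranked at 84.5 to 96.0, and at 52.2 and 42.9 in DP cells of A and A1. All 3 Sox2 sites thus ranked lower in each DP library with a peak there than in any pluripotent library. Most kept sites likewise ranked lower in DP than in SOX2+ cells (95.4% in A, 95.6% in A1 and 99.1% in B). DP lists are shorter, so these ranks are no measure of a change in binding. All 3 carried H3K27ac in the 6 SOX2-expressing libraries and in DP cells, and in neither nEnd library, and none had an nEnd GATA6 peak. The sites 3.65 and 111 kb downstream lacked a peak of DP library B and were not kept without DP library A or A1, with all 3 DP libraries required or with the stronger 50% of peaks.

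The strongest kept site of the pluripotency genes lay 2.81 kb upstream of Klf2, a naive pluripotency factor (chr8:72315975-72316828). It ranked at 99.5 to 99.9 in pluripotent libraries and at 94.5, 93.6 and 88.7 in DP cells of A, A1 and B. Like the site 15.4 kb downstream of Klf2 (chr8:72333881-72334748; DP percentiles 83.4, 55.4 and 60.7), it had H3K27ac in all 6 SOX2-expressing libraries and in neither of nEnd. The Nanog site 4.42 kb upstream (chr6:122702267-122703292), within the known upstream enhancer of this factor, ranked at 71.1 to 97.1 in pluripotent cells and at 80.6, 69.0 and 34.2 in DP cells. It carried H3K27ac in both nEnd libraries. Sall4, a zinc-finger factor used in both lineages of the inner cell mass, had kept sites 24 kb (chr2:168790700-168791475) and 2.26 kb upstream (chr2:168769228-168769870), with nEnd GATA6 in both libraries at each, at percentiles of 5.94 and 28.4 for the former and 52.1 and 57.6 for the latter. The Klf4 site 56.1 kb downstream (chr4:55475174-55476544) was of the same kind, with nEnd GATA6 percentiles of 67.2 and 80.7. All 3 had H3K27ac and H3K4me1 in every nEnd library. Pluripotency sites therefore differed among themselves, those of Sox2 and Klf2 being without nEnd H3K27ac and those of Sall4 and Klf4 carrying it together with GATA6. Jarid2, a partner of Polycomb repressive complex 2, had named sites 7.15 and 49.9 kb upstream, and the orphan nuclear receptor gene Nr5a2 a site 418 kb upstream that had no H3K27ac in either SOX2+ library.

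Genes of LIF signalling, the cytokine pathway that sustains naive ESCs, were next to 4 kept sites (0.245%, beside 0.113% of all merged regions). Lifr and Il6st encode the receptor chains, and their strongest sites were among the highest of all kept sites. The site 12.7 kb upstream of the nearest Lifr start site, in an intron (chr15:7115187-7117423), ranked at 96.8 to 99.7 in pluripotent libraries and at 95, 92.6 and 98.5 in DP cells of A, A1 and B. The Il6st site 47.5 kb upstream (chr13:112416357-112416978) ranked at 92.5 to 99.8 and at 98.1, 98.1 and 92.1. DP and pluripotent ranks overlapped at both. The Il6st site and a weaker Lifr site 8.57 kb upstream (chr15:7081743-7082426) had GATA6 in both nEnd libraries. The kept site of Socs3, the feedback inhibitor of the pathway, ranked at 10.01 and 13.2 in 2iLIF and at 87.1 to 96.7 in NACL and SOX2+ cells, and a DP GATA6 peak lay 0.456 kb from it. All 4 carried H3K27ac and H3K4me1 in both nEnd libraries. Among all kept sites these shares were 24.7% and 26.9%, and among all merged regions 19.4% and 16.3%.

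Genes of FGF and ERK signalling were next to 7 kept sites (0.429%, beside 0.258% of all merged regions), of which 3 had H3K27ac in both SOX2+ libraries, 4 in the DP library and 1 in both nEnd libraries, compared with 39.7%, 69.4% and 24.7% of all kept sites. The Fgf4 site, in an exon 2.99 kb downstream of the start site (chr7:144864096-144864800), ranked at 65.5 to 95 in pluripotent libraries and at 67.1 and 60.8 in DP cells of A and A1, with H3K27ac in all 6 SOX2-expressing libraries and neither of nEnd. Spred2, an inhibitor of ERK activation, had sites 113 and 177 kb upstream without H3K27ac in SOX2+ cells. The Dusp4 site, 74.4 kb upstream of this ERK phosphatase gene, likewise lacked it. Of formative epiblast genes, Foxd3 and Etv5 had 2 kept sites each. All 4 carried H3K27ac in every 2iLIF and NACL library and in DP cells, and in neither nEnd library. The stronger Foxd3 site (chr4:99670103-99670788) ranked at 91.4, 79.9 and 85.9 in DP cells.

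Nodal, a TGF-beta family ligand, had kept sites 0.606 and 1.87 kb upstream (chr10:61416667-61417485 and chr10:61415627-61416652), which lie side by side. Tdgf1, its co-receptor, had a site 1.47 kb upstream. These 3 sites had H3K27ac in both SOX2+ libraries and in DP cells, and in no case in both of nEnd. The Nodal and BMP list thus held 0.184% of kept sites and 0.103% of all merged regions. The WNT effectors Tcf7l2 and Lef1 had 2 and 1 kept sites (0.184%, beside 0.225% of all merged regions for the WNT list). Both Tcf7l2 sites lay in introns and had H3K27ac in both nEnd libraries and in neither SOX2+ library, and the Lef1 site had the reverse. The Polycomb genes Suz12 and Eed had 1 kept site each (0.122%, beside 0.110% for the chromatin list), 1.06 and 1.09 kb from a DP GATA6 peak. Of genes of the trophoblast list, Tfap2c had 2 and Eomes 1 (0.184%, beside 0.130%), and the Tfap2c site 26.5 kb downstream (chr2:172577024-172577789) ranked at 98.0 to 99.8 in pluripotent cells and at 95, 95.7 and 85.9 in DP cells. None of these 3 had a mark or GATA6 in nEnd.

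The 24 genes of the PrE list were next to 3 kept sites (0.184%, beside 0.311% of all merged regions). Both Dab2 sites, near the gene of an endocytic adaptor, lay 307 and 404 kb upstream of its start site and had no H3K27ac in nEnd. The Lama1 site (chr17:67693916-67694253), 3.2 kb upstream of the gene of a basement membrane laminin chain, was of the opposite kind. SOX2 ranked there at 17.6 to 87.2 in pluripotent libraries and at 30.6 and 42.9 in DP cells, and nEnd GATA6 ranked at 96.7 in B9 and 95.5 in B12. H3K27ac was called there in both NACL and both nEnd libraries, and in no 2iLIF or KOSR library. Other kept sites with the highest nEnd GATA6 percentiles were nearest to Mybph, a muscle myosin-binding protein gene (98.7 and 98.1), Galnt2, a glycosyltransferase gene (95.4 and 95.2), Tanc1, a scaffold protein gene (94.1 and 92.9), and Hs6st1, a heparan sulfate sulfotransferase gene (93.0 and 93.1). All 5 had H3K27ac and H3K4me1 in every nEnd library. A DP GATA6 peak lay 0.283 kb from the Galnt2 site.

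The kept sites with the highest SOX2 rank over all 10 libraries were nearest to Sox13, Ncoa1, Bcas2, Zfp804a, Gm28710, Rit2, Trdn, Nup205, Cd83 and Ism2, none of which is in the gene lists used. Their mean percentiles ran from 99.1 to 99.9 and their lowest DP percentile was 95.8. The highest, in an intron 4.55 kb upstream of the nearest protein-coding start site of Sox13 (chr1:133397581-133398116), carried H3K4me1 in all 6 SOX2-expressing libraries but H3K27ac in only 2 of them and not in DP cells. Of the 10, 8 had H3K27ac in the DP library and in at least 5 of the 6 others.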

How the data were processed

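CUT&RUN was performed on SGGC mouse ESCs and nEnd cells, and 35 of the 53 samples carry SEACR peak lists, while the 18 IgG controls were not analysed here. According to the submitters' processing notes, the tools were cutadapt 1.18, Bowtie2 2.3.4.1, SAMtools 1.9, Picard 2.9.1, bedtools 2.27.1, deepTools 3.2.0 and SEACR, with mm10 as the build. The authors called peaks per library against IgG, and each deposited peak holds its total and highest signal. Files are named relaxed for histone marks and stringent for transcription factors, whereas the methods state the reverse. Signal scales differ between libraries and read depth is unknown, so only ranks among a library's own peaks and the presence of a peak (overlap of at least 1 bp) were used, and peak numbers limit what can be seen.

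Groups followed the sample labels, and 2 libraries with conflicting labels entered no comparison. Regions of one genome are not replicates, so classes were compared over libraries: exact sign-flip permutation tests over the 6 libraries of a mark (Benjamini-Hochberg adjusted over 4 tests) and exact permutation tests of 6 against 2 nEnd libraries (adjusted over 2), all two-sided. The labels place the libraries in clones and experiments of the same lines, so p-values measure the spread between these libraries, which may be technical. Clopper-Pearson intervals (95%) cover counting error only. Clone (B9 or B12) was used as a replicate block in alternative comparisons with nEnd. Start sites, genes and sequence came from GENCODE M21 and GRCm38. The members, gene lists and motif strings were chosen with earlier results of these data known. Kept sites were named if nearest to a listed gene (up to 12 of the pluripotency list and 4 of each other list, by mean SOX2 percentile), if among the 10 with the highest mean SOX2 percentile of those with all 3 DP libraries, or if among the 5 with the highest mean nEnd GATA6 percentile. Part of the formative epiblast list is not reported here. Alternatives were another merging rule, stronger peaks, each library left out, other distances and windows, and equal peak numbers. The scripts (Python 3.11.15, NumPy 2.4.6, pandas 2.3.3, SciPy 1.17.1) were tested on simulated data.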

Additional observations from a re-analysis of the deposited data

Results flagged for a closer look

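The difference in H3K4me1 share between kept and DP-absent sites went one way in every library of some populations and the opposite way in every library of others. It averaged −0.80 percentage points in 2iLIF and −4.81 in NACL, and 5.71 in KOSR SOX2+ cells and 13.1 in nEnd. It was 14.8 in the single DP library. At equal peak numbers the 2iLIF libraries turned positive (0.84 and 5.02). The difference between populations was not tested.

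A pair of KOSR libraries of experiment B is called DP in the title and SOX2+ in the source name, so they entered no comparison. The H3K4me1 library had a peak at 86.3% of kept sites and 58.1% of all merged SOX2 regions. For the H3K27ac library these shares were 47.8% and 19.2%.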

How the results depend on the processing

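The number of kept sites depended on the DP lists. It was 925 with the stronger 50% of SOX2 and DP GATA6 peaks and 721 with all 3 DP libraries required, and leaving out single SOX2 or DP GATA6 libraries gave 735 to 1898 (735 without DP SOX2 A1, 761 without DP SOX2 A, 1898 without DP GATA6 A). The H3K4me1 difference from DP-absent sites, which was near 0, changed sign with the stronger peaks (−2.40 points), with no DP GATA6 within 1 kb (−0.13) and in 500 bp windows (−0.85), and was 3.98 at equal peak numbers. Leaving out libraries moved it from −1.24 to 2.87, with negative values without DP GATA6 A1 (−0.077), DP SOX2 B (−0.29) or SOX2+ H3K4me1 of A (−1.24) or B (−0.96). The H3K27ac differences from co-bound and DP-absent sites stayed within −5.33 to −3.16 and 9.85 to 15.1 points when libraries were left out, and the H3K4me1 difference from co-bound sites within −4.81 to −2.23. Without a library of the mark, 5 libraries remain and the exact permutation test cannot pass the threshold. The excess over nEnd was 44.6 to 54.6 points for H3K27ac and 22.7 to 33.4 for H3K4me1 with libraries left out. With clone as the replicate block it was 51.6 for H3K27ac, and for H3K4me1, where both nEnd samples are B9, the comparison within B9, chosen after seeing the data, gave 10.5. The mean nEnd GATA6 share was 26% for the stronger peaks and 14.9% to 24% with libraries left out. Within 500 bp and 5 kb of start sites lay 9.68% and 31.8% of kept sites, and leaving out libraries gave 12.0% to 14.8% within 1 kb. In 200 bp windows the strings were found in 40.2% (SOX), 6.37% (OCT), 8.51% (GATA), 3.18% (ESRRB), 3.61% (KLF) and 2.08% (NANOG). The composite was in 9.62% with the stronger peaks. With all 3 DP libraries, SOX stood at 58.3% and GATA at 22.1%, and leaving out libraries gave 51.0% to 58.5% for SOX and 22.2% to 27.4% for GATA. Of the 52 kept sites named by rule, 28 were kept under all 17 alternatives to the selection. Read depth is unknown, so the absence of a peak is no measure of absent binding.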

Other observations

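Kept sites often lay in repeats as soft-masked in the reference genome. More than 50% of the 500 bp window was masked at 537 of the 1633 (32.9%, 95% Clopper-Pearson interval 30.6 to 35.2), compared with 27.9% of co-bound sites (24.3 to 31.6), 18.6% of DP-absent sites (16.8 to 20.5) and 17% of all merged SOX2 regions. The share was 32.0% at kept sites with 2 DP libraries and 34% at those with 3. Masked kept sites held the SOX string in 56.8% of windows, compared with 48.9% of the others, but the SOX-OCT composite in 2.42%, compared with 10.9%. They were less often within 1 kb of a start site (6.15% and 17.2%), and had H3K27ac in both nEnd libraries at 14.2%, compared with 29.9%, and GATA6 in both at 7.82%, compared with 16.9%. Over all merged SOX2 regions these shares, except that of the SOX string, split in the same direction. Masked and other regions stood at 1.92% and 4.24% for the composite and 6.21% and 15.1% for start sites. For nEnd H3K27ac they stood at 10.01% and 21.3%, and for nEnd GATA6 at 6.19% and 10.2%. The SOX string split the other way, at 41% of masked and 42.9% of other regions. These are shares over regions without a test.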
